A study of Mus musculus with 25 samples.

Results

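Vcam1 and 6 other cell adhesion genes (Icam1, Ncam1, Cdh1, Cdh2, Itga6 and Itgb1) were followed in mouse ovarian follicles growing in culture. They were read from every probe that carried one of these symbols on an Illumina mouse bead array, which gave 9 of 25697 probes and 7 of 18138 symbols. The genes were chosen by measured values: Vcam1 was selected on its level, which stood among the largest differences between day 8 and day 0, and the other 6 joined it as adhesion molecules with their values on these arrays already known. Differences between follicle days are therefore given for the 7 genes as descriptions, with no test.

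All follicles came from CD-1 mice aged 16 days, and the labels name no allele or drug. They were multilayered secondary follicles 150 to 180 µm across, taken from the ovary by hand, each sealed in its own alginate bead, a seaweed gel that keeps the round shape. The medium was alphaMEM with 10 mIU/ml FSH, the pituitary hormone that drives follicle growth, and with 3 mg/ml albumin, 1 mg/ml fetuin, insulin and transferrin at 5 µg/ml and selenium. Day 0, before culture, had 5 arrays, and days 2, 4, 5, 6 and 8 of culture had 3 arrays each; 20 to 40 follicles were pooled per group and freed with 10 U/ml alginate lyase. A further 5 arrays were labelled as a mouse brain reference. The day 0 arrays carried titles of a reference too and may be repeats of 1 pool, so p-values against day 0 may measure technical spread. Per the labels, the cultured days came from independent experiments.

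Cells hold on to each other and to their matrix through a few protein families. VCAM1, ICAM1 and NCAM1 belong to the immunoglobulin superfamily: VCAM1 and ICAM1 bind integrins on neighbouring cells and are known for recruiting leukocytes at inflamed endothelium, where NF-kB switches on their genes, and NCAM1 binds NCAM1 on the next cell. Cadherins bind the same cadherin across the gap between cells and are tied to actin inside the cell by catenins. Integrins are pairs of an alpha and a beta chain that bind matrix proteins such as laminin. In a follicle, granulosa cells surround the oocyte, rest on a laminin-bearing basal lamina and are enclosed by theca cells, and both cadherins and integrins act at these contacts.

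On the 20 follicle arrays, between 44.2% and 51.3% of probes were detected (detection p under 0.05). The detection p is the chance that background, as seen on the array's negative control beads, gives a signal as bright as the probe's. Over all genes tested, replicate arrays of a day correlated at 0.950 or above, the lowest value being at day 6, and the median SD between replicates was 0.17 to 0.28 on the log2 scale. The 9 probes were carried by 20 to 61 beads on each array, and the standard error over beads was 2.39% to 8.37% of the signal. Levels below are log2 values after background correction and quantile normalization of the 20 arrays. A level is compared only with the same probe on other arrays. All 7 genes passed the filter for being tested, which asked for detection on at least 3 arrays.

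Vcam1 (chr3:116110020-116129688 in GRCm38.p6) stood higher on every later day of culture, and by the largest margin of the 7 genes. On the 5 day 0 arrays the log2 level was 7.662, 7.845, 8.205, 8.041 and 8.0995. On day 2 it was 8.79, 8.99 and 8.06, and on day 4 it was 9.44, 9.81 and 9.21. Day 0 and day 2 overlapped, since 1 of the 3 day 2 arrays lay within the day 0 range, while every day 4 array was above both. The levels on day 5 were 10.80, 10.81 and 10.40. On day 6 they were 12.44, 11.90 and 11.60, and on day 8 they were 12.79, 12.98 and 12.88. From day 2 on, each day sampled lay entirely above the one before it, with means of 8.62 ± 0.49, 9.49 ± 0.30, 10.67 ± 0.24, 11.98 ± 0.43 and 12.88 ± 0.10 (SD, n = 3 each) against 7.97 ± 0.22 (SD, n = 5) at day 0.

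The difference in Vcam1 between day 8 and day 0 was 4.91 (SE 0.11) on the log2 scale, or 30.1-fold. Of this, 0.65 (SE 0.30) lay between day 0 and day 2, within the overlap of the arrays, and 4.27 (SE 0.29), or 19.3-fold, between day 2 and day 8. The successive steps were 0.87 (SE 0.33) from day 2 to 4, 1.18 (SE 0.22) from day 4 to 5, 1.31 (SE 0.28) from day 5 to 6 and 0.90 (SE 0.25) from day 6 to 8. The difference per day of culture was thus highest between days 4 and 6. Among all 10688 genes tested, the arrays of neighbouring days did not overlap for 26% between days 2 and 4, 13.7% between days 4 and 5, 15.1% between days 5 and 6 and 12% between days 6 and 8. The deposited signal itself, before any correction, was 318 to 492 at day 0 and 6816 to 9492 at day 8. In the authors' deposited log2 table the difference between day 8 and day 0 was 3.71, which is smaller than after background correction.

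**Figure D1:**
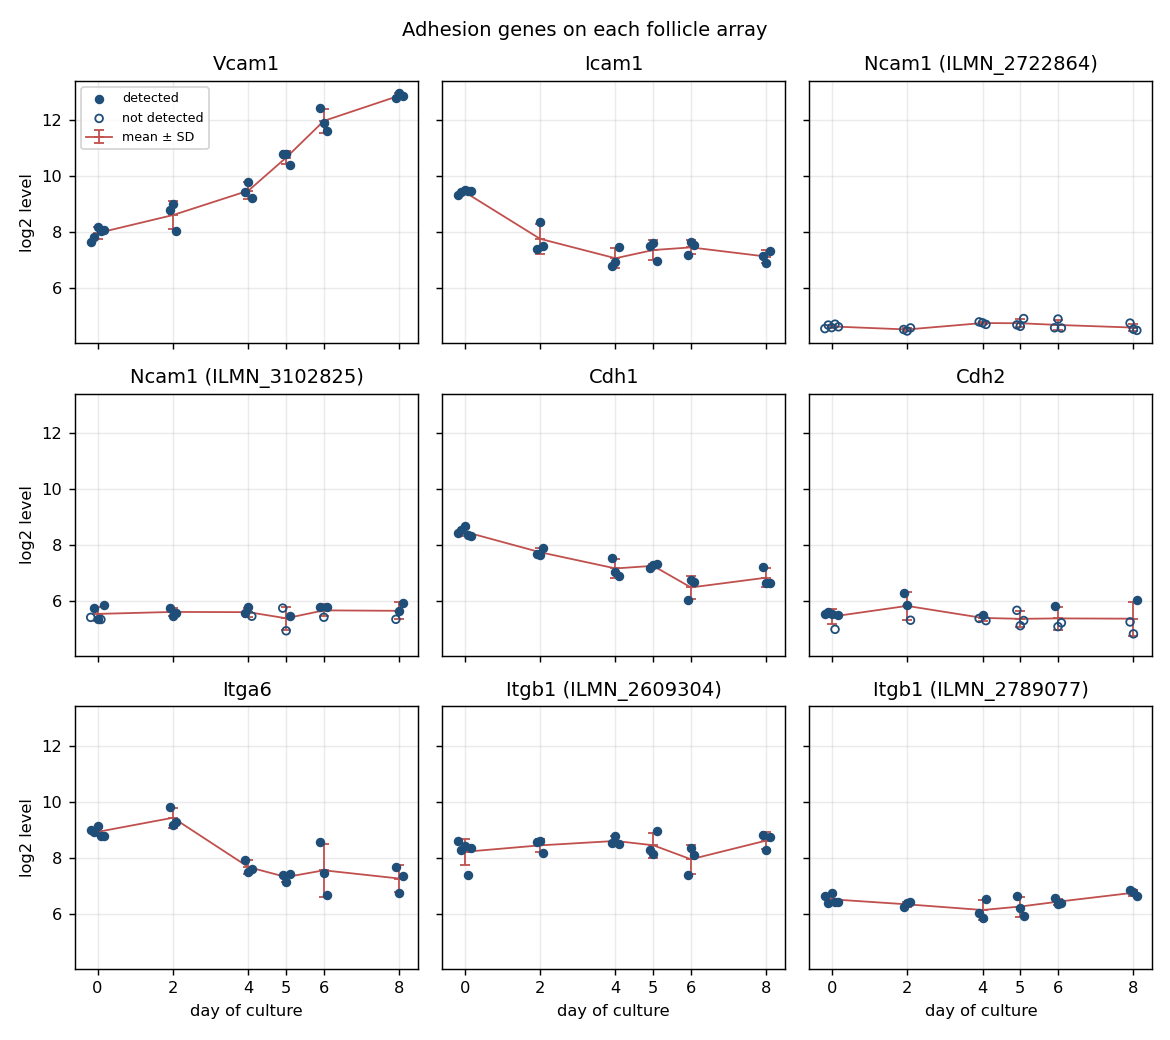
Log2 level of each probe of the 7 adhesion genes (vertical axis) against the day of culture (horizontal axis); each point is 1 array, filled where the probe was detected and open where it was not, and the red line joins the day means with bars of 1 SD (n = 5 at day 0, n = 3 on each later day). Vcam1 stands at 7.97 at day 0 and at 12.88 at day 8, Icam1, Cdh1 and Itga6 end lower than they began, and Ncam1, Cdh2 and Itgb1 stay within a narrow band.

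Icam1 (chr9:21015940-21028814), which codes for another ligand of leukocyte integrins, was lower on all cultured days. Its log2 level at day 0 was 9.34, 9.43, 9.51, 9.47 and 9.46. On day 2 it was 7.42, 8.38 and 7.51, and on day 4 it was 6.79, 6.95 and 7.47. All later arrays lay below all day 0 arrays, and the lower level was already present at the first sampling of cultured follicles. It was 7.52, 7.61 and 6.97 on day 5, 7.18, 7.65 and 7.55 on day 6, and 7.15, 6.89 and 7.35 on day 8. From day 4 on, neighbouring days overlapped.

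The mean of Icam1 went from 9.44 ± 0.06 (SD, n = 5) at day 0 to 7.77 ± 0.53 at day 2 and 7.13 ± 0.23 at day 8 (SD, n = 3 each). Day 2 differed from day 0 by -1.67 (SE 0.31) on the log2 scale, 3.19-fold lower, and day 8 differed from day 0 by -2.31 (SE 0.13), 4.96-fold lower. Day 8 lay below day 2 by a further -0.64 (SE 0.33) with no overlap, a difference of -0.33 without day 2 replicate 2, whose level of 8.38 was the highest of that day. The size depended on the background correction: between day 8 and day 0 it was -1.16 in the authors' deposited log2 table and -1.71 with no background correction.

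The promoter of Icam1 is shown because human ICAM1 is a textbook target of NF-kB and Vcam1 is known to answer to NF-kB as well. It is the RefSeq sequence of GRCm38.p6 at chr9:21015690-21015989, plus strand, 300 bases that end 50 bases after the gene's start. Capitals mark 2 motifs that were searched on both strands.
Icam1: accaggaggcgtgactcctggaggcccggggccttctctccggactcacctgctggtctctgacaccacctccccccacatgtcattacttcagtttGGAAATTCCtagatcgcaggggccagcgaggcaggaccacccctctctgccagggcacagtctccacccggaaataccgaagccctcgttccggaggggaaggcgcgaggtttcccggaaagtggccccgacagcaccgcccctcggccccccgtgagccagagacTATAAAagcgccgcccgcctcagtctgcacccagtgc
The letters GGAAATTCC, the NF-kB element known from human ICAM1, were present 1 time here and in 0.317% of the 32851 mouse promoters of this length. The letters TATAAA, those of a TATA box, were present 1 time here and in 13.6% of them. This match, at bases 264 to 269, begins 13 bases after the annotated start of the gene and not before it. The 2 matches do not overlap. A match is a run of letters and not a measured binding site.

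Ncam1 (chr9:49502129-49799393), an adhesion molecule best known from neurons, was near the limit of detection throughout. Its probe ILMN_3102825 had log2 levels from 4.93 to 5.94 over the 20 arrays and was detected on 3 of 5 arrays at day 0 and on 3, 2, 1, 2 and 2 of 3 arrays on days 2, 4, 5, 6 and 8. The second probe, ILMN_2722864, was detected on 0 of the 20 follicle arrays, with levels from 4.47 to 4.92. Day means of the first probe ran from 5.38 to 5.66, and the SD within a day from 0.15 to 0.41, so no day stood apart.

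Cdh1 (E-cadherin, chr8:106603350-106670247), which joins epithelial cells and is also present on mouse oocytes, was lower on all cultured days. The log2 level was 8.44, 8.55, 8.69, 8.36 and 8.33 at day 0. It was 7.67, 7.65 and 7.91 on day 2 and 7.55, 7.04 and 6.90 on day 4. Neither day overlapped day 0, and day 4 lay below day 2. The values were 7.16, 7.28 and 7.32 on day 5, then 6.02, 6.74 and 6.68 on day 6, and 7.21, 6.63 and 6.66 on day 8. Day 6 lay below day 5, and days 6 and 8 overlapped, so the lower level was reached over several samplings and not at the first alone.

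The mean of Cdh1 was 8.47 ± 0.15 (SD, n = 5) at day 0, 7.74 ± 0.14 at day 2 and 6.83 ± 0.33 at day 8 (SD, n = 3 each). Day 2 differed from day 0 by -0.73 (SE 0.11) and day 8 from day 2 by -0.91 (SE 0.21). Day 8 differed from day 0 by -1.64 (SE 0.20), 3.12-fold lower. The latter was -0.68 in the authors' deposited log2 table and -1.07 with no background correction.

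Cdh2 (N-cadherin, chr18:16588877-16809246), the cadherin known to join granulosa cells, gave a signal close to background. Its log2 level ran from 4.82 to 6.29 over the 20 arrays, and it was detected on 4 of 5 arrays at day 0 and on 2, 1, 0, 1 and 1 of 3 arrays on days 2, 4, 5, 6 and 8. Day means lay between 5.36 and 5.82 and overlapped on all days.

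Itga6 (chr2:71786886-71858427), the integrin alpha chain that pairs with ITGB1 or ITGB4 to bind laminin, was higher on day 2 than at day 0 and lower from day 4 on. At day 0 the log2 level was 9.00, 8.91, 9.13, 8.79 and 8.78. On day 2 it was 9.83, 9.17 and 9.29, all above day 0. On day 4 it was 7.93, 7.48 and 7.58, all below day 0. Itga6 was the only one of the 7 genes whose arrays lay above day 0 on 1 day and below it on a later one. The levels were 7.38, 7.12 and 7.42 on day 5. They were 8.55, 7.43 and 6.66 on day 6 and 7.67, 6.74 and 7.35 on day 8. Day 6 had the widest spread of any day for this gene (SD 0.95), with replicate 1 close to the day 0 level.

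For Itga6, day 2 differed from day 0 by 0.51 (SE 0.21), from means of 9.43 ± 0.35 (SD, n = 3) and 8.92 ± 0.15 (SD, n = 5). Day 8, with a mean of 7.25 ± 0.47 (SD, n = 3), differed from day 2 by -2.17 (SE 0.34), 4.51-fold lower, and from day 0 by -1.67 (SE 0.28), 3.18-fold lower. The step from day 2 to day 4 was -1.76 (SE 0.24), so most of the difference was in place by day 4. In the authors' deposited log2 table the difference between day 8 and day 2 was -1.13 and that between day 8 and day 0 was -0.78.

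Itgb1 (chr8:128685654-128733579), the beta chain shared by many matrix receptors, had 2 probes, both detected on all arrays. The brighter, ILMN_2609304, stood at 8.60, 8.26, 8.43, 7.40 and 8.36 at day 0 and at 8.80, 8.28 and 8.75 on day 8. The groups overlapped, and the difference of 0.40 (SE 0.27) was within the spread between replicates, given that day 0 replicate 4 lay at 7.40. The other probe, ILMN_2789077, had means of 6.51 ± 0.16 (SD, n = 5) at day 0, 6.33 ± 0.10 at day 2 and 6.75 ± 0.11 at day 8 (SD, n = 3 each). On this probe day 8 lay above day 2 by 0.41 (SE 0.09) with no overlap, while on the brighter probe these days overlapped.

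Counted over the 7 genes, the arrays did not overlap for 3 between day 2 and day 0, 4 between day 8 and day 2 and 4 between day 8 and day 0. Among all genes tested this held for 35.8%, 36.8% and 46.7%. Since the genes were chosen with these values known, nothing is read from the counts.

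**Figure D2:**
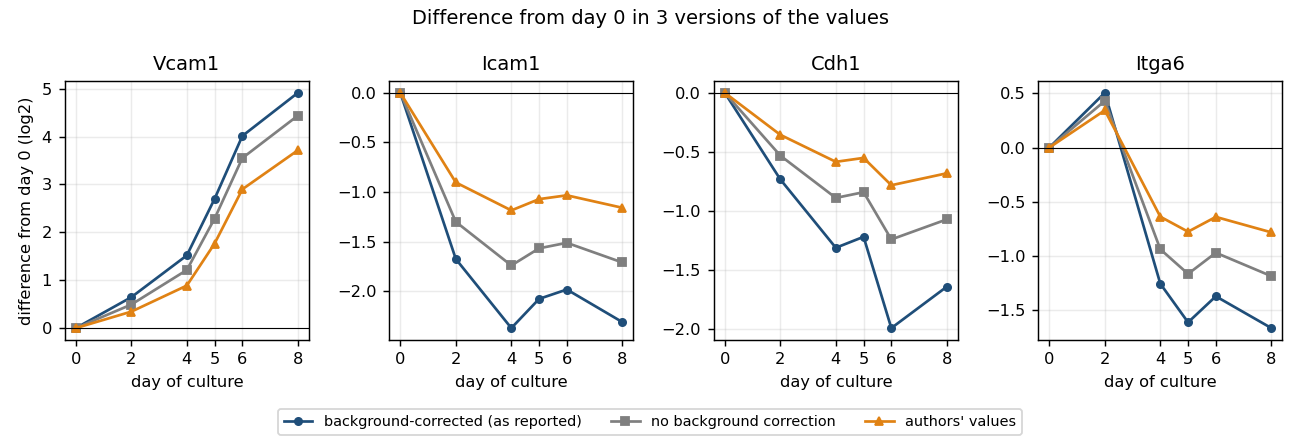
Difference of each day's mean from day 0 on the log2 scale (vertical axis) against the day of culture (horizontal axis) for Vcam1, Icam1, Cdh1 and Itga6, in 3 versions of the values: background-corrected, without background correction and the authors' deposited log2 values. The vertical axes differ between panels. The direction is shared by the 3 versions on every day, and the size is smallest in the authors' values, for example 3.71 against 4.91 for Vcam1 at day 8.

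Over the 20 arrays, the log2 level of Vcam1 correlated with that of Cdh1 at r = -0.87, of Itga6 at -0.74 and of Icam1 at -0.68. Icam1 and Cdh1 correlated at 0.81, and Cdh1 and Itga6 at 0.68. These arrays share their days of culture and their normalization, so the values describe how the time courses line up and carry no test. The genes whose levels tracked Vcam1 most closely were Kif3c, Smpdl3a and Clcn3 (r = 0.98 each), Dnah2, Reck and Sort1 (0.97 each) and Angpt2 and Fads2 (0.96 each). Angpt2, the angiopoietin that loosens vessel walls, went from 9.07 ± 0.18 (SD, n = 5) at day 0 to 12.92 ± 0.21 (SD, n = 3) at day 8. Reck, a membrane inhibitor of matrix metalloproteinases, went from 6.17 ± 0.11 to 8.56 ± 0.24. The most opposite were Amh, Pold3 and Pdss1 (r = -0.97 each). Amh, the anti-Müllerian hormone of granulosa cells in small follicles, went from 9.83 ± 0.32 to 4.58 ± 0.10. It was detected on 0 of 3 day 8 arrays, so the latter value is background and not a measured level.

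For the other genes the closest single match was Gldn for Icam1 (r = 0.98), Dppa3 for Cdh1 (0.98), Col18a1 for Itga6 (0.92), Zzz3 for Itgb1 (0.75), St6galnac4 for Ncam1 (0.74) and Cfap97 for Cdh2 (0.73). Gldn, which codes for gliomedin, went from 9.53 ± 0.09 (SD, n = 5) to 5.79 ± 0.37 (SD, n = 3) between day 0 and day 8. Dppa3, an oocyte gene also known as Stella, went from 11.25 ± 0.06 to 9.35 ± 0.15 over the same days. The 3 lower matches belong to Itgb1, Ncam1 and Cdh2, whose day means differed least.

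Levels of cell type markers moved over the same days, and in pooled follicles fewer cells of a type and less RNA per cell cannot be told apart. Summed over the 10 oocyte markers measured of 12, the linear level was 71054 to 79033 on day 0 arrays and 16572 to 17541 on day 8 arrays, in the direction of Cdh1, Icam1 and Itga6. Surface epithelium markers, 4 of 8 measured, summed to 1969 to 2287 at day 0 and to 493 to 627 at day 8, and 11 of 12 endothelial markers to 3197 to 3437 and to 1485 to 1851, also lower. Theca markers, 9 of 10 measured, went the way of Vcam1, with sums of 3649 to 3947 at day 0 and 16406 to 21929 at day 8. Leukocyte markers, 10 of 12 measured, summed to 585 to 639 at day 0 and to 1147 to 2334 at day 8, also the way of Vcam1. Of the 8 leukocyte markers tested between the follicle days, 5 rose and 2 fell from day 0 to day 8. These calls, at a limma adjusted p under 0.05, were 87.5% of those tested, against 43.4% of all genes (20.6% higher, 22.8% lower). The median log2 change of the 8 was 1.07, beside -0.003 for all genes. Fcgr3 was detected on 0 of 5 day 0 arrays and 3 of 3 day 8 arrays, and Cd68 on 1 of 5 and 3 of 3. Tyrobp was detected on 3 of 5 and 3 of 3, and Cd52 on 4 of 5 and 3 of 3. Adgre1 went the other way, from 3 of 5 to 0 of 3, as did Cd14, from 5 of 5 to 2 of 3. Lyz2 and Laptm5 were detected on all follicle arrays, while Csf1r, Aif1, Ptprc and Itgam were detected on 0 of the 20. Ptprc and Itgam, like the endothelial receptor Kdr, were also detected on 0 of 5 arrays labelled brain, where all 10 leukocyte markers measured were detected, so their absence from follicles cannot be read. Granulosa markers, 11 of 12 measured, summed to 35496 to 45576 at day 0 and 80377 to 101382 at day 8. The part of these shifts in the levels of the 7 genes was not tested.

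The binding partners of the 7 genes were read from the same arrays. The integrin chains of leukocytes that bind VCAM1, Itga4, Itgb7 and Itgad, were detected on 0 of the 20 follicle arrays, while Itga9, a further receptor for VCAM1, was detected on all 20. Itga9 stood at 7.39 ± 0.13 (SD, n = 5) at day 0, 7.97 ± 0.24 at day 2 and 6.72 ± 0.15 at day 8 (SD, n = 3 each). Itga9 fell by 1.25 (SE 0.24) on the log2 scale from day 2 to day 8, 2.38-fold, with a limma adjusted p of 0.000682, while Vcam1 was 19.3-fold higher over those days. For ICAM1, the leukocyte chains Itgam and Itgb2 were also detected on 0 of the 20 arrays, and Itgal had no probe. Itga4 and Itgam were detected on 0 of 5 arrays labelled brain as well, so these probes gave a signal nowhere in the series. Itgad and Itgb2 were detected on 1 of those 5 arrays and Itgb7 on all 5. The absence of Itga4, Itgam, Itgad and Itgb2 from follicles therefore cannot be firmly read. Itgb4, the other partner of ITGA6, was detected on 13 of 20 arrays and did not pass the test between day 8 and day 0 (log2 change -0.17, SE 0.17, limma adjusted p = 0.459). Of the catenins that carry cadherins, Ctnna1 and Ctnnb1 were detected on all 20 arrays and Ctnnd1 on 1. Ctnnd1 was detected on 0 of 5 arrays labelled brain too, so its absence from follicles cannot be read. Ctnna1 was 12.58 ± 0.02 at day 0 and 12.49 ± 0.19 at day 8, and Ctnnb1 was 12.38 ± 0.11 and 12.64 ± 0.25. Neither passed the test between those days (limma adjusted p = 0.602 and 0.0871), though Ctnnb1 passed at 0.0141 in the authors' values, at 0.0392 with no background correction and at 0.0377 without day 8 replicate 2.

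Other adhesion genes were drawn from a list of 68 integrins, immunoglobulin-type adhesion molecules, cadherins and catenins that leaves out the 7 genes. This list and those below were chosen with earlier results of these data known, so their shares are descriptions. Of these, 62 were on the array and 36 were bright enough to test. Between day 2 and day 0, 2 rose and 11 fell at a limma adjusted p under 0.05, which is 36.1% of those tested against 25.1% of all genes (12.1% higher, 13.1% lower). From day 2 to day 8, 6 rose and 4 fell, 27.8% against 22.4% (10.1% higher, 12.3% lower). From day 0 to day 8, 5 rose and 10 fell, 41.7% against 43.4% (20.6% higher, 22.8% lower). The median log2 change was -0.26, 0.01 and -0.14 in the 3 comparisons, beside medians within 0.003 of 0 for all genes. On the days between, 2 rose and 16 fell by day 4, 50% of those tested against 33.7% of all genes. By day 5, 2 rose and 14 fell, 44.4% against 35.9%, and by day 6, 2 rose and 12 fell, 38.9% against 42.9%. An adjusted p under 0.05 for any difference over the 6 days was found for 22 of the 36, or 61.1%, and for 50% of all genes. The comparisons with day 0 share the same day 0 arrays. With the 5 day 0 arrays averaged and counted as 1 sample, 0 rose and 3 fell between day 2 and day 0, and 1 rose and 5 fell between day 8 and day 0.

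**Figure D3:**
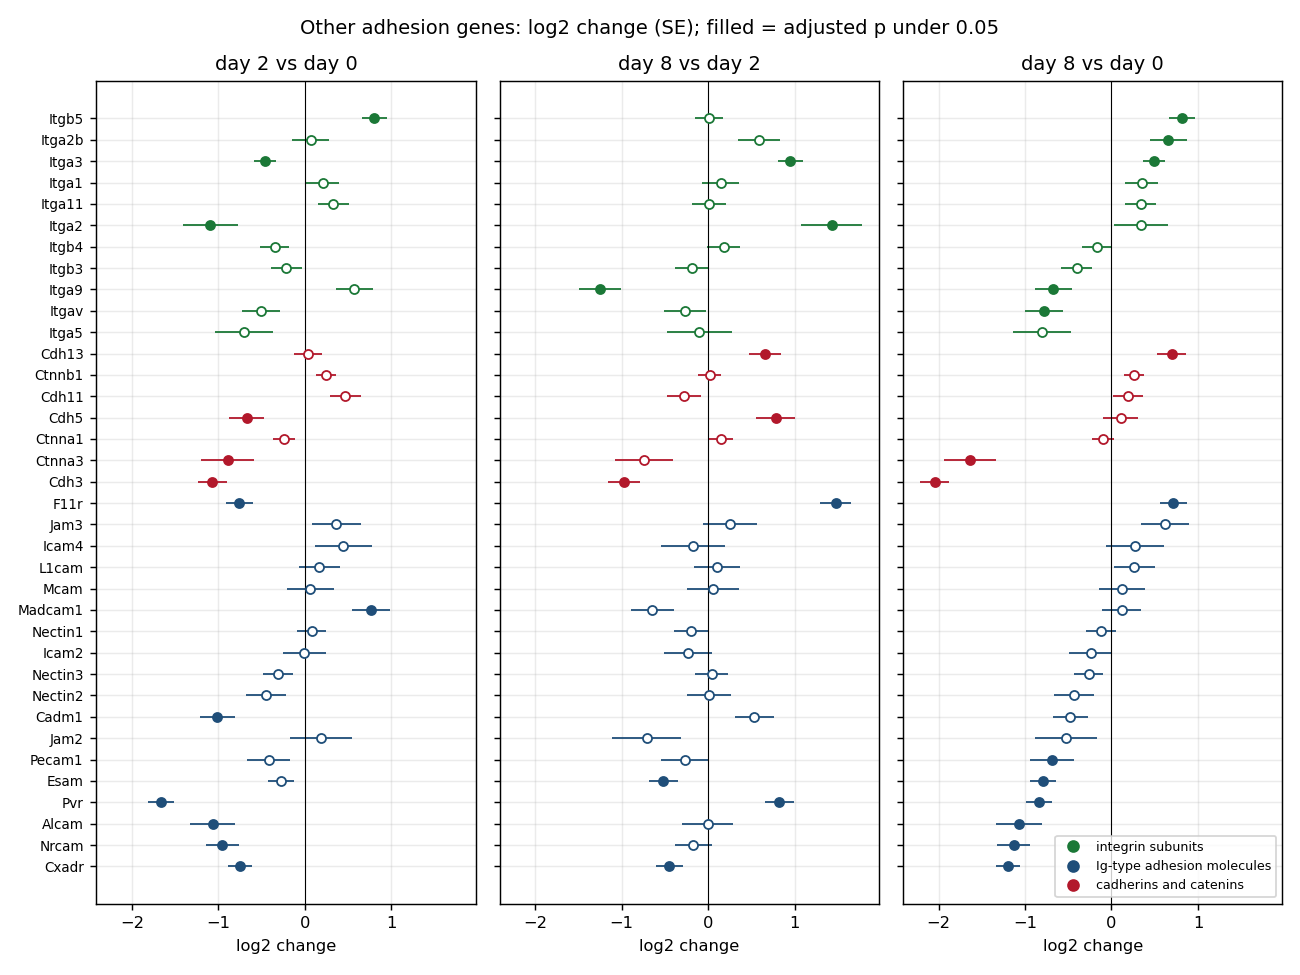
Log2 change (horizontal axis) of the 36 other adhesion genes tested (vertical axis) between day 2 and day 0, day 8 and day 2, and day 8 and day 0; points are limma estimates with bars of 1 SE, filled where the adjusted p was under 0.05, and colours mark the family. In the first panel 11 filled points lie below 0 and 2 above it, and in the middle panel 6 lie above 0 and 4 below it.

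Among integrin chains, 11 of 24 were tested, and the share called was near that of all genes. It was 27.3% between day 2 and day 0, against 25.1% of all genes. Between day 8 and day 2 it was 27.3% against 22.4%, and between day 8 and day 0 it was 45.5% against 43.4%. Itgb5, a partner of the alpha-v chain in binding vitronectin, rose between day 0 and day 2 by 0.80 (SE 0.15, limma adjusted p = 0.000405) and stood at 11.28 ± 0.14 on day 2 and 11.30 ± 0.12 on day 8. Itga3, a laminin receptor chain like Itga6, fell by 0.46 to day 2 (limma adjusted p = 0.0123, and 0.068 without day 2 replicate 2) and rose by 0.95 (SE 0.14) from day 2 to day 8 (5.49e-05), opposite to the course of Itga6. Itga2, a collagen receptor chain, fell by 1.09 to day 2 (limma adjusted p = 0.0143), a call that was lost in the authors' deposited log2 table (-0.23, 0.142), with no background correction (-0.44, 0.0712) and without day 2 replicate 3 (0.0594), and rose by 1.43 (SE 0.35) from day 2 to day 8 (0.0052), though it stood at 7.57 ± 0.75 on day 4 and 6.02 ± 0.67 on day 6. From day 0 to day 8, Itga9 fell by 0.68 (0.015, and 0.0712 without day 8 replicate 2) and Itgav, the alpha-v chain, by 0.78 (0.0073). Itga2b, the platelet chain, was not detected at day 0 and was at least 1.30-fold higher at day 8, from measured means of 5.11 and 5.76 (limma adjusted p = 0.0189, and 0.153 without day 8 replicate 2). Such bounds are set against the dimmest detected probe of the same arrays. Itga5, the fibronectin receptor chain, was lower by a log2 change of -0.81 (SE 0.34) and did not pass (0.0598), but passed at 0.0275 without day 8 replicate 2 and at 0.0434 without day 6 replicate 1. With day 0 counted as 1 sample, the limma adjusted p was 0.0658 for Itgb5, 0.371 for Itga3 and 0.354 for Itga2 between day 2 and day 0, and 0.194 for Itgav, 0.262 for Itga9 and 0.286 for Itga2b between day 8 and day 0.

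Of the immunoglobulin-type molecules, 18 of 26 were tested. Between day 2 and day 0, 6 fell and 1 rose, 38.9% against 25.1% of all genes. Pvr, the poliovirus receptor and a ligand of nectins, fell by 1.66 (SE 0.15, 3.16-fold, limma adjusted p = 1.14e-07). Alcam, which binds CD6 and itself, fell by 1.06 (SE 0.26, 0.00537), Cadm1, a nectin-like molecule, by 1.01 (SE 0.20, 0.00104) and Nrcam, a relative of L1, by 0.96 (SE 0.19, 0.000949). The one that rose was Madcam1, a gut vessel ligand of the alpha-4 beta-7 integrin, by 0.76 (SE 0.22, 0.0152, and 0.0912 without day 2 replicate 2). It was detected on 1 of 5 day 0 arrays, 3 of 3 day 2 arrays and 1 of 3 day 8 arrays, and on none between. Madcam1 met the filter of 3 detected arrays only through day 2, and Nrcam only through day 0. The p-values of Madcam1 and Nrcam are therefore no independent support. With day 0 counted as 1 sample, Pvr and Nrcam still passed, and Alcam (0.265), Cadm1 (0.138) and Madcam1 (0.281) did not.

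From day 2 to day 8, F11r, the tight junction molecule JAM-A, rose by 1.47 (SE 0.18, 2.78-fold, limma adjusted p = 4.87e-06) and Pvr rose by 0.82 (SE 0.17, 0.00105). F11r stood at 7.59 ± 0.13 (SD, n = 5) at day 0, 6.83 ± 0.08 at day 2 and 8.31 ± 0.21 at day 8 (SD, n = 3 each), and so was also higher at day 8 than at day 0 (0.72, SE 0.16, 0.00102). Esam, a junction molecule of endothelium, fell by 0.52 from day 2 to day 8 (0.0286), but did not pass without day 2 replicate 2 (0.0794), day 2 replicate 3 (0.106) or day 8 replicate 1 (0.15). At day 8, 6 were lower and 1 was higher than at day 0 at an adjusted p under 0.05, 38.9% against 43.4% of all genes. Cxadr, the coxsackievirus and adenovirus receptor of tight junctions, fell by 1.20 (SE 0.14, 2.29-fold, 9.32e-07) and Alcam by 1.07 (SE 0.26, 0.00249). Pvr was still lower at day 8 than at day 0 (-0.84, SE 0.15, 0.00012), and Nrcam, not detected at day 8, was at least 1.52-fold lower, from measured means of 6.04 and 4.92 (7.24e-05). F11r (0.0879) and Alcam (0.128) did not pass between day 8 and day 0 with day 0 counted as 1 sample, nor did Esam (0.0775) between day 8 and day 2. Nectin3, among the brightest that did not pass, had a log2 change of -0.26 (SE 0.17, 0.23).

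Of the other cadherins and catenins, 7 of 18 were tested, and 3 were called in each of the 3 comparisons, 42.9%. Between day 2 and day 0, 0 rose and 3 fell, against 25.1% of all genes called. From day 2 to day 8, 2 rose and 1 fell, against 22.4%, and from day 0 to day 8, 1 rose and 2 fell, against 43.4%. Cdh3, P-cadherin, stood at 6.83 ± 0.17 (SD, n = 5) at day 0 and was detected on all 5 arrays. It fell by 1.07 (SE 0.17, limma adjusted p = 9.02e-05) to day 2, when 2 of 3 arrays detected it, and was detected on 0 of 3 arrays on each of days 4, 5, 6 and 8. At day 8 it was at least 2.61-fold lower than at day 0, from measured means of 4.78 and 6.83 (8.49e-09). Ctnna3, alpha-T-catenin, fell by 1.64 (SE 0.30, 3.11-fold, 0.00018) between day 0 and day 8. From day 2 to day 8 Cdh5, the cadherin of endothelium, rose by 0.78 (SE 0.23, 0.0166), but did not pass without day 2 replicate 1 (0.0826), without day 8 replicate 2 (0.0783) or in the authors' deposited log2 table (0.13, 0.0535). Cdh13, a cadherin anchored to the membrane by lipid, was detected on 0 of 3 arrays at day 2 and on 2 of 3 at day 8. It was at least 1.24-fold higher at day 8 than at day 2, from measured means of 5.02 and 5.68 (limma adjusted p = 0.0138). The adjusted p was 0.0505 without day 2 replicate 2 and 0.0817 without day 8 replicate 1. Cdh13 met the filter of 3 detected arrays only through day 8, and Cdh3 only through day 0. Their p-values are therefore no independent support.

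The laminin chains that ITGA6 pairs bind, 8 of 11 of them tested, included 4 that fell between day 0 and day 2 and 0 that rose, 50% against 25.1% of all genes (13.1% lower). With day 0 counted as 1 sample, the calls at day 2 were lost for Lama1 (0.162), Lama2 (0.332) and Lamc3 (0.107). Lama1 fell by 0.68 (SE 0.14, limma adjusted p = 0.00136) to day 2 and stood 1.11 lower at day 8 than at day 0 (log2 change -1.11, SE 0.14, 2.63e-06), with means of 10.89 ± 0.12 (SD, n = 5), 10.21 ± 0.18 and 9.78 ± 0.24 (SD, n = 3 each). Lamc3 fell by 1.00 (SE 0.18, 0.000462) to day 2 and rose by 1.26 (SE 0.21, 0.000143) from day 2 to day 8, to 8.49 ± 0.37. Lama2 fell by 0.65 to day 2 (0.0113, and 0.0906 without day 2 replicate 2). The median log2 change of the 8 chains was -0.43 to day 2, or -0.16 with undetected chains at their bound, and 0.04 between day 8 and day 0.

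Of the adaptor proteins that tie integrins to actin at focal adhesions, 13 of 20 were tested. From day 2 to day 8, 2 rose and 1 fell, 23.1% against 22.4% of all genes, and from day 0 to day 8, 2 rose and 3 fell, 38.5% against 43.4%. Lims2, a partner of integrin-linked kinase, rose by 1.33 (SE 0.22, 2.52-fold, limma adjusted p = 0.000123) and Vcl, vinculin, by 0.89 (SE 0.15, 0.000193). Actn1, an actin crosslinker, fell by 0.94 (SE 0.15, 0.00014). Over the whole culture Lims2 rose by 1.17 (5.42e-05) and Vcl by 0.51 (0.00412), while Actn1 fell by 1.31 (2.23e-07), Bcar1, the docking protein p130Cas, by 1.12 (6.34e-06) and Ptk2, focal adhesion kinase, by 0.57 (0.00117). With day 0 counted as 1 sample, Vcl (0.143) and Ptk2 (0.0991) did not pass. Zyx, zyxin, among the brightest of the list, did not pass (-0.17, SE 0.21, 0.55).

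Because Vcam1 and Icam1 are both known targets of NF-kB, genes of that pathway and further targets were read as a list, 20 of 22 of them tested. The list was chosen with earlier results of these data known, so nothing is read from its share called. Between day 8 and day 0, 3 rose and 10 fell, 65% of the list against 43.4% of all genes, with a median log2 change of -0.57, or -0.42 with undetected genes at their bound, beside -0.003 for all genes. The chemokine gene Ccl2 was not detected at day 8 and was at least 5.78-fold lower than at day 0, from measured means of 4.76 and 7.97 (limma adjusted p = 1.29e-08). Cxcl1 fell by 2.03 (SE 0.30, 1.89e-05) and Tnfaip3, which codes for the NF-kB inhibitor A20, by 1.56 (SE 0.22, 1.03e-05). Cxcl2, not detected at day 8, was at least 1.40-fold lower, from measured means of 4.68 and 5.92 (7.79e-05). Cxcl2 met the filter of 3 detected arrays only through day 0, so its p-value is no independent support.

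The NF-kB genes that rose between day 0 and day 8 were the kinase subunits Ikbkg by 0.78 (SE 0.14, limma adjusted p = 0.000122) and Chuk by 0.72 (SE 0.15, 0.000775) and the TNF receptor Tnfrsf1a by 0.71 (SE 0.25, 0.0276). Tnfrsf1a did not pass without day 0 replicate 1 (0.0685), day 8 replicate 2 (0.0974) or day 8 replicate 3 (0.101), in the authors' deposited log2 table (0.23, 0.0789) or with no background correction (0.39, 0.0597). With day 0 counted as 1 sample, Tnfrsf1a (0.292) and Chuk (0.0575) did not pass, and Ikbkg did not pass when its probes were averaged (0.0616). The transcription factor subunits Rela (-0.18, SE 0.14, 0.343) and Nfkb1 (-0.36, SE 0.23, 0.223) did not pass. Between day 2 and day 0, 1 gene of the list rose and 2 fell, 15% against 25.1% of all genes. From day 2 to day 8, 1 rose and 7 fell, 40% against 22.4%. Cxcl1 stood at 11.77 ± 0.07 (SD, n = 5) at day 0, 12.15 ± 0.70 at day 2 and 9.11 ± 0.16 at day 4 (SD, n = 3 each). Relb was already lower at day 2 than at day 0, with no overlap (-0.68, SE 0.17, limma adjusted p = 0.00502). That call was lost with the repeat number as a replicate block (0.0508) and with day 0 counted as 1 sample. The day 2 arrays of Icam1 also lay below all day 0 arrays. Whether these courses share a cause was not tested.

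The 5 arrays labelled as a brain reference were set beside day 0 after all 25 arrays were normalized together. Their label was checked first. Heart muscle markers, 9 of 10 measured, summed to 188510 to 196412 on these arrays and to 559 to 800 at day 0. Of the 9, 8 were detected on all 5 of these arrays and Ryr2 on 3 of 5. Of 12 brain markers, 4 were bright enough to test, with sums of 534 to 657, and Gfap, Snap25, Syt1, Nrgn, Olig1 and Mog were detected on 0 of the 5 arrays. These markers go against the label, so the arrays are called here the arrays labelled brain. The day 0 arrays on the other side of this comparison served in choosing the 7 genes, so their differences are again a description, with no p. The SEs given with these differences come from the limma fit, where all groups share an estimate of the spread. The SEs of the 7 genes between follicle days came only from the arrays of the days compared. In the limma fit over all 11258 genes, 4 of the 7 were called higher and 2 lower, beside 75.5% of all genes (34.2% higher, 41.3% lower), and nothing is read from that count.

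Vcam1 stood at 9.94, 10.28, 10.14, 10.24 and 10.19 on the arrays labelled brain and at 7.53, 7.71, 8.07, 7.91 and 7.96 at day 0. The groups did not overlap, and the difference was 2.32 (SE 0.17), 5.00-fold. Cdh1 went the other way, with 6.05, 6.17, 4.91, 5.05 and 5.50 against 8.305, 8.417, 8.555, 8.228 and 8.196 at day 0. It was lower by 2.81 on the log2 scale (difference -2.81, SE 0.21) and was detected on 2 of the 5 arrays labelled brain. Itga6 was lower too, with means of 7.06 ± 0.22 and 8.79 ± 0.15 (SD, n = 5 each; difference -1.73, SE 0.23).

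The genes that were near background in follicles were measurable on the arrays labelled brain. Cdh2 stood at 6.61, 6.89, 6.87, 6.37 and 6.63, against 5.47, 5.53, 5.47, 4.95 and 5.44 at day 0 (difference 1.30, SE 0.19). Ncam1 was higher by 0.70 (SE 0.16) on probe ILMN_3102825. Its other probe, ILMN_2722864, had means of 6.92 ± 0.14 and 4.62 ± 0.06 (SD, n = 5 each) and was detected on 5 of 5 arrays labelled brain and 0 of 5 day 0 arrays. Both probes of Ncam1 and the probe of Cdh2 thus gave a signal in RNA of another origin. Icam1 had means of 9.65 ± 0.13 and 9.31 ± 0.06 (SD, n = 5 each; difference 0.33, SE 0.17), with no overlap.

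Itgb1 was higher by 0.56 (SE 0.24) on its brighter probe, with overlap of the groups, and by 0.35 without day 0 replicate 4. The second probe of Itgb1 had means of 7.35 ± 0.26 and 6.39 ± 0.15 (SD, n = 5 each), with no overlap.

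**Figure D4:**
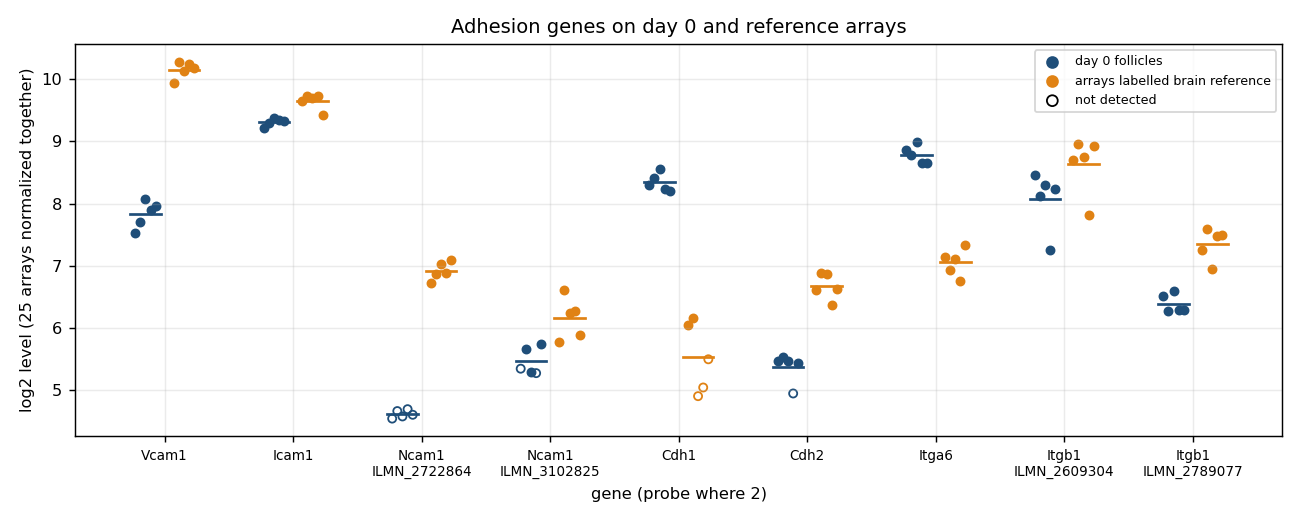
Log2 level (vertical axis, 25 arrays normalized together) of each probe of the 7 adhesion genes (horizontal axis) on the 5 day 0 arrays and the 5 arrays labelled brain reference; each point is 1 array, open where the probe was not detected, and short lines are group means. Vcam1, Cdh2 and both probes of Ncam1 are higher on the arrays labelled brain, and Cdh1 and Itga6 are lower.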

How the data were processed

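Total RNA of follicle pools and of a reference was hybridised to Illumina mouse bead arrays. Per the file headers, the authors deposited for each probe and array a mean bead signal as an intensity without normalization, a detection p-value, the standard error over beads and the number of beads (other units). The name of the scanner software is not given in the sources used here. The authors also deposited log2 values for 23286 of the 25697 probes. Their 25 columns had medians of 7.842 to 7.894, and each correlated best with the signal of its own array over 6351 bright probes (lowest r 0.993), so their scale is log2 and their direction that of the signal. Their normalization is not stated.

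Signals of the 20 follicle arrays were corrected and quantile normalized with neqc (limma 3.58.1, R 4.3.3; background from the detection p, offset 16). Probes detected at p under 0.05 on at least 3 arrays were kept (14490), and the probe with the highest mean stood for each symbol (10688 genes). Among genes named with a p-value, Madcam1, Nrcam, Cdh3, Cdh13 and Cxcl2 met this only through a single day on which they were high. Symbols were updated through the RefSeq table of GRCm38.p6: of 18138, 14307 were current, 2906 were updated and 925 were kept as given. Promoter sequence came from RefSeq, which gave Icam1 and Itgb1 of the 7 genes. One mean per day was fitted with lmFit and eBayes, with Benjamini-Hochberg adjustment over all genes. The arrays labelled brain were normalized and fitted with the others in a separate run; that fit's p-values for the 7 genes are not printed, because the day 0 arrays served in choosing them. Samples were grouped by their labels.

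The 7 genes and the gene lists were chosen with earlier results of these data known. The genes named from each list were, for day 2 against 0, day 8 against 2 and day 8 against 0, up to 4 in each direction with the largest change among those past the threshold whose arrays did not overlap, and up to 2 of the brightest that did not pass, besides all partners of the 7 genes. Not all of these are printed, and 1 is not reported here. Genes like a member were those with the highest Pearson correlation over the 20 arrays (8 and the 3 most negative for Vcam1, 1 for each other). The number of arrays limits the precision. Alternatives were the authors' log2 values, no background correction, no or a stricter filter (detection p under 0.01), averaged probes, array weights, the repeat number as a replicate block, day 0 as 1 sample and leaving out each array. The fit was tested on simulated data.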

Additional observations from a re-analysis of the deposited data

Results flagged for a closer look

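Single arrays stood apart in 4 of the 18 combinations of a probe of the 7 genes with a group of 5 arrays; chance gives about 1 in 20. Icam1 was 9.43 on replicate 5 of the arrays labelled brain, while the other 4 lay between 9.66 and 9.73. Cdh2 was 4.99 on day 0 replicate 4, below the others at 5.51 to 5.61. Itgb1 on probe ILMN_2609304 was 7.40 on day 0 replicate 4, with the others at 8.26 to 8.60. The same probe was 7.82 on replicate 4 of the arrays labelled brain, with the others at 8.70 to 8.95. The second Itgb1 probe did not stand apart on these arrays.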

How the results depend on the processing

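The difference in Vcam1 between day 8 and day 0 was 4.91, 3.71 in the authors' log2 values and 4.44 without background correction, and 4.83 to 4.97 when any 1 array was left out. Counts of other adhesion genes depended on the setting. For those that rose between day 2 and day 0 (2 in the fit reported), the count was 1 with the stricter filter, 4 with averaged probes, 6 with array weights, 1 with the repeat number as a replicate block, 0 with day 0 as 1 sample, and 1 to 3 on leaving out an array, the lowest without day 2 replicate 2. For those that fell (11), it was 3 with day 0 as 1 sample. Between day 8 and day 2 the count that fell (4) was 7 with array weights and 2 with day 0 as 1 sample, and 2 to 4 on leaving out an array, the lowest without day 2 replicate 3. For day 8 against day 0 the count that rose (5) was 3 with the stricter filter and 1 with day 0 as 1 sample, and the count that fell (10) was 5 with day 0 as 1 sample. Cxadr between day 8 and day 2 turned from a log2 change of -0.45 to 0.0272 when its probes were averaged. Among named genes of the lists, 515 results under settings other than leaving out an array kept direction and side of the threshold and 40 lost the call; on leaving out an array, 1375 kept both and 40 lost the call. The cause was not tested. Repeat numbers did not pair the samples: deviations from the day mean correlated with a median r of 0.02 over 30 same-numbered pairs and 0.03 over 60 others, and 2 of 15 cultured arrays correlated best with their own number. Signal near background limits how far a lower level of Ncam1 or Cdh2 could be seen.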
